A study of Mus musculus with 12 samples.

Results

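The transcripts of the respiratory chain and of ATP synthase were followed through 72 h of fasting in the mouse small intestine with 45 oligonucleotide probes of 40 genes, out of 20280 probes of 18116 gene names on the array. A probe was a member when it was no array control and its gene name in the 12 h files began with Nduf, Uqcr, Cox4 to Cox8, Atp5 or Sdhb to Sdhd, or was Cyc1, Cycs, Atpi or Usmg5. By name 15 probes belonged to complex I, 3 to complex III, 1 to cytochrome c, 11 to complex IV and 15 to complex V. No probe carried a complex II name in these files, so succinate dehydrogenase was read from probes whose present gene symbol is Sdha, Sdhb, Sdhc or Sdhd, beside the members. The mice were FVB males aged 6 weeks, either fed (0 h) or deprived of chow for 12, 24 or 72 h in metabolic cages, with an infrared lamp for warmth from 24 h onwards. Each of the 4 time points had 3 arrays. Each array compared a pool of full-thickness intestinal RNA from 2 mice, labelled with Cy3, with a Cy5 reference, and no dye was swapped. By the methods the reference was common to all arrays and pooled from 6 fed mice. The label of fed pool 3 instead names the mice of that pool as its reference, and the methods were followed. All 45 probes were matched to a present gene by their gene number, and the Ndufs5 probe is now assigned to a pseudogene of that gene, so that its values may not be those of Ndufs5 itself. Ndufaf1 is an assembly factor of complex I that the naming rule took in with the subunits.

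The respiratory chain carries electrons from NADH (complex I) and succinate (complex II) through ubiquinone to complex III, from there through cytochrome c to complex IV, and on to oxygen. Complexes I, III and IV pump protons across the inner mitochondrial membrane, and complex V, the ATP synthase, lets them flow back to make ATP. Most subunits are encoded in the nucleus, a few by mitochondrial DNA, and only complex II is wholly nuclear. The intestinal epithelium spends ATP on absorption and on its continual renewal. Nuclear subunit genes are known targets of NRF-1 (Nrf1), NRF-2 (also called GABP) and YY1, and of the coactivator PGC-1α (Ppargc1a).

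Promoter windows of 300 bases (250 before to 50 after the start of transcription, RefSeq, GRCm38.p6) were found for 30 of the 40 member genes. They are shown for some of the genes with large falls described below and for Atp5g2, a gene whose call at 72 h depended on 2 arrays. Capitals mark NRF-1 letters (GCGCANGCG) in Cycs, Atp5k, Atpi and Atp5g2, YY1 letters (AAGATGGCG) in Ndufc1 and Atp5j2, and Sp1 letters (GGGGCGGGG) in the second capital run of Atp5g2, each searched on both strands. Usmg5 held none of the motifs searched. Among genes with falls whose windows are not shown, Ndufa4, Cox5a, Cox5b and Cox7a2 held none either, whereas Atp5j held YY1 letters and Atp5l NRF-1 letters. All are printed 5′ to 3′ on the strand of the gene. Cycs lies at chr6:50566520-50566819 (minus strand), Atp5k at chr5:108434350-108434649 (minus strand), Atpi, now Atpif1, at chr4:132535365-132535664 (minus strand), Ndufc1 at chr3:51408906-51409205 (minus strand), Atp5j2 at chr5:145191492-145191791 (minus strand), Usmg5, now Atp5md, at chr19:47090598-47090897 (minus strand) and Atp5g2 at chr15:102670998-102671297 (minus strand).
Cycs: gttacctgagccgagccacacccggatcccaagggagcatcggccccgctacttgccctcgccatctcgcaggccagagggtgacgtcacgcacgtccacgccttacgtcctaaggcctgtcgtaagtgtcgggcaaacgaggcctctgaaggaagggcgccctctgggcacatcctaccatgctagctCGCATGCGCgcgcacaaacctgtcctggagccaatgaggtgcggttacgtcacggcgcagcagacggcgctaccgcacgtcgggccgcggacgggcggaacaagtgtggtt
Atp5k: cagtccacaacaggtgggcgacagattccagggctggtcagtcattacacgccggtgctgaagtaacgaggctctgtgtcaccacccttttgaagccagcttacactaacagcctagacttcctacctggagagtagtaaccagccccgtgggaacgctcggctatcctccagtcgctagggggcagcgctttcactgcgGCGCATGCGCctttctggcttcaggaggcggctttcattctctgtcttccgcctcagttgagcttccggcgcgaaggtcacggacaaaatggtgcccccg
Atpi: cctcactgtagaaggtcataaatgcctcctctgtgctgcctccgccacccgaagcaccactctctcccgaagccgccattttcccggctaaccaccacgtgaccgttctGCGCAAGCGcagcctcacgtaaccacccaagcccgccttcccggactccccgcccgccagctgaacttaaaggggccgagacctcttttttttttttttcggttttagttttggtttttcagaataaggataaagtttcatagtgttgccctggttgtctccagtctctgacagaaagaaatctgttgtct
Ndufc1: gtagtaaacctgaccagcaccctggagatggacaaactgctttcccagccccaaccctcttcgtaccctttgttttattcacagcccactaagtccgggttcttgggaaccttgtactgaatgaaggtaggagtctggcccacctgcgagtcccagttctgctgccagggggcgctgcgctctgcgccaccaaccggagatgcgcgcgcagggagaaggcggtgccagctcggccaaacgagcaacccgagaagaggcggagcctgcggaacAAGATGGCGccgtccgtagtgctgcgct
Atp5j2: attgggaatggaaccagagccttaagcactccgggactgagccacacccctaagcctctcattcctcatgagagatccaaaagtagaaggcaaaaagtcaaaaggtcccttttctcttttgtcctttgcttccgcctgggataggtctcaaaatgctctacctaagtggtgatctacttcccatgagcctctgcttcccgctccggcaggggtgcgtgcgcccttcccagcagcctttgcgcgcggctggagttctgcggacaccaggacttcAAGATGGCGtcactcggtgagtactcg
Usmg5: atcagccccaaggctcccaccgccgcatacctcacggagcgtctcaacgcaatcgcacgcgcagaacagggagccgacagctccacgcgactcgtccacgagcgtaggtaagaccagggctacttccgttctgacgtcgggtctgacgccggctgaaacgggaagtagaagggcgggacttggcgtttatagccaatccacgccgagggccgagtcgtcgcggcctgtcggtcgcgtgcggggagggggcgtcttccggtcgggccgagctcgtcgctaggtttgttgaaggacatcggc
Atp5g2: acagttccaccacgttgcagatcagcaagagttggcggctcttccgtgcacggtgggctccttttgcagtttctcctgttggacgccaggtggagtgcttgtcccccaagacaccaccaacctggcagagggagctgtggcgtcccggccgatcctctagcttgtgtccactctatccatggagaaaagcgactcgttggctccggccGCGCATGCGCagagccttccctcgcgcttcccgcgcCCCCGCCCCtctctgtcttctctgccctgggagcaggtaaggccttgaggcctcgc

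The NRF-1 letters were present in 10 of the 30 member genes (33.3%) against 7.03% of all 27025 genes with a window. The YY1 letters stood in 4 (13.3%) against 1.64%. The NRF-2 letters (CCGGAAGNG) stood in 3 (10%) against 4.56%, and the Sp1 letters in 5 (16.7%) against 12.9%. Among the 18 genes with a window that were called lower at 72 h, 6 held NRF-1 letters (33.3%), the same share as 4 of the 12 other member genes (33.3%). All 4 genes with YY1 letters, namely Ndufc1, Ndufs4, Atp5j2 and Atp5j, were among the 18, and all 5 with Sp1 letters were among the other 12. These are descriptions of letters in a window and not of bound sites, and no test was made of them.

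A pair of properties of the arrays bears on the members and is given before the results. The median Cy5 signal was 124 to 142 on the fed and 72 h arrays and 392 to 627 on the 12 h and 24 h arrays, which also differ in file format. The 72 h and fed pools thus share a format, as do the 12 h and 24 h pools, but a difference of 12 h or 24 h from fed pools cannot be told apart from the format. The second property concerns 2 arrays. In the Cy3 channel of fed pool 3, 728 probes were over 2-fold below the other fed pools, in the Cy5 channel of 12 h array 3, 1541 probes were over 2-fold below the other 12 h arrays, and 394 probes (1.94%) were low in both. Of the members 5 were low in both, namely Ndufv2, Cox7a2l, Atp5g1, the Uqcrc1 probe A_65_P19407 and the Atp5a1 probe A_65_P05575. Atp5g1 was 5.30-fold low in Cy3 of fed pool 3 and 9.75-fold low in the Cy5 reference on 12 h array 3. Counts of all members called lower are therefore given with all arrays and without both of these, whereas counts of members by complex take in all arrays. On the single-channel scale the Cy3 signal of 41 of the 45 members was well above background throughout, none was saturated on any array, and 14 members lacked a value on at least 1 array.

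**Figure D1:**
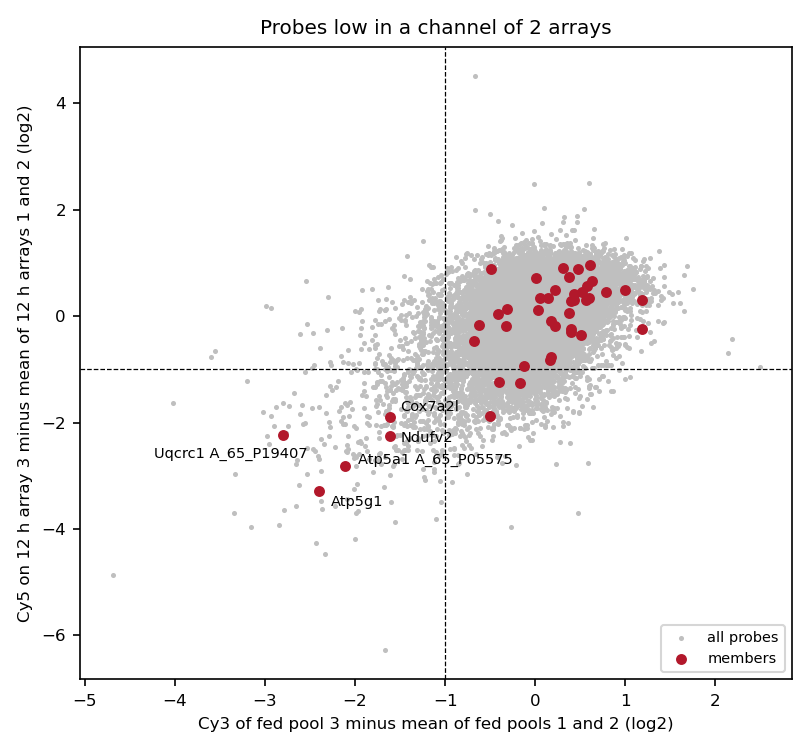
Deviation of each probe in the Cy3 channel of fed pool 3 from the mean of fed pools 1 and 2 (horizontal, log2) against its deviation in the Cy5 channel of 12 h array 3 from the mean of 12 h arrays 1 and 2 (vertical, log2). Grey points are all probes, red points the members and dashed lines the 2-fold limit; the 5 named members lie beyond both limits, with Atp5g1 at -2.40 and -3.29.

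More members of the chain were called lower than the fed pools at 72 h than at 12 h or 24 h. Of the 45 members 25, probes of 23 genes, were called lower at 72 h than in the fed pools and none was called higher, where 5.8% of all probes were called lower and 4.8% higher (limma on log2 Cy3/Cy5 over the 12 arrays, Benjamini-Hochberg adjusted p under 0.05 over all probes). At 12 h 13 members were called lower and 3 higher, against 6.02% and 4.9% of all probes. At 24 h 16 were lower and 2 higher, against 6.26% and 3.79%. The median difference of the members from the fed pools was -0.27, -0.48 and -0.81 on the log2 scale at 12, 24 and 72 h in turn, where the median of all probes lay between -0.02 and 0.02. In 33 of the 45 members every 72 h pool lay below every fed pool, which held for 20.6% of all probes. These 3 comparisons share the fed pools. Without both arrays named above, a choice made after seeing the data, 3, 14 and 30 members were called lower at 12, 24 and 72 h in turn. Of all probes 2.49%, 8.82% and 8.44% were. Without fed pool 3 alone the counts were 2, 6 and 19, against 1.76%, 3.16% and 3.13% of all probes. Without 12 h array 3 alone they were 6, 19 and 28, against 3.8%, 10.8% and 9.94%. Where a gene has 1 pool left in a group without both arrays, as said beside its values, that pool is assumed to vary like those of the other groups. In full-thickness tissue, fewer cells of a type and less RNA per cell cannot be told apart.

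**Figure D2:**
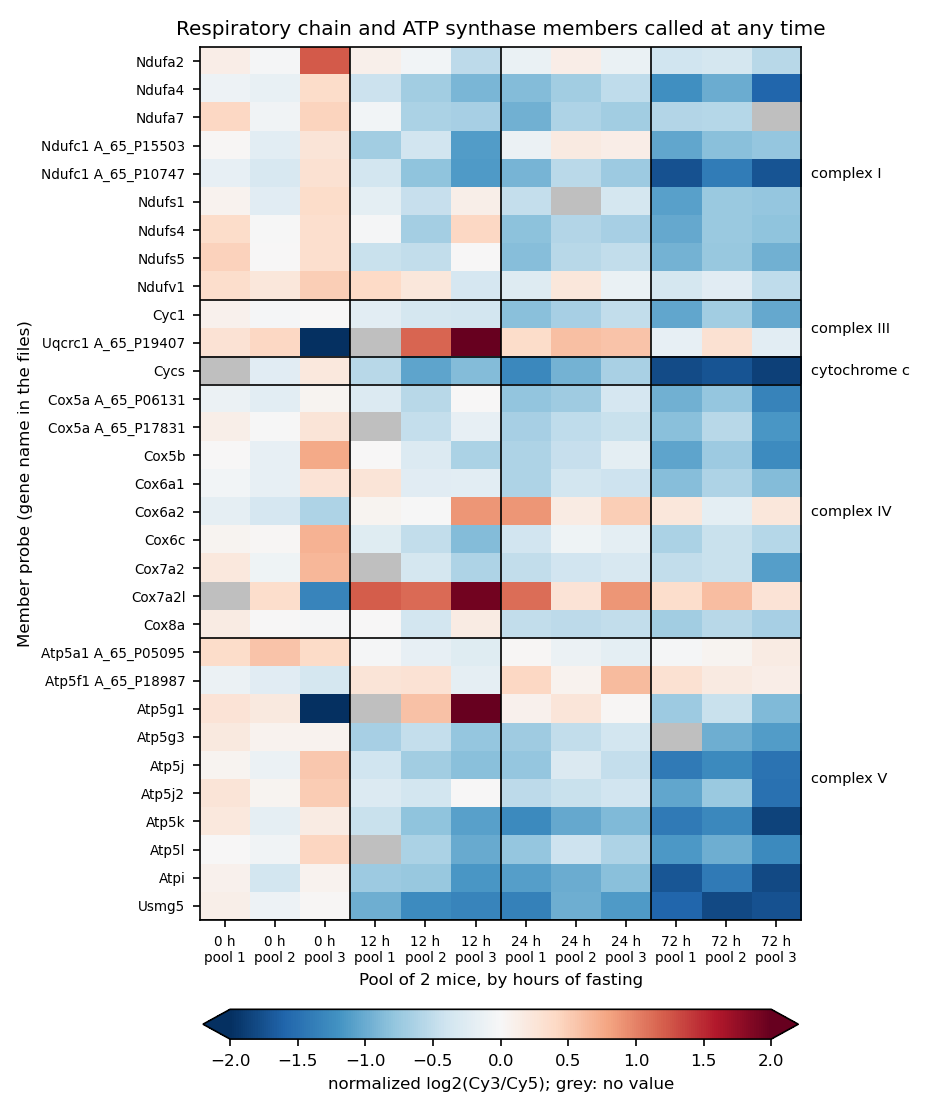
Normalized log2(Cy3/Cy5) of the 31 members called against the fed pools at 12, 24 or 72 h (rows, by complex) in each of the 12 pools of 2 mice (columns, by hours of fasting); blue is below and red above the common fed reference, and grey marks a missing value. The 72 h columns are blue for most members, and the darkest red cells at 12 h pool 3 and the dark blue cells at fed pool 3 belong to members low in those channels.

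By complex, the 72 h calls with all arrays were as follows. Complex I had 9 of 15 probes called lower with a median of -0.88, complex IV 7 of 11 with -0.80 and complex V 7 of 15 with -0.78, which was -1.15 with 1 probe per gene, -1.20 over probes well above background on every array and -0.47 with loess normalization. Cytochrome c fell and so did 1 of the 3 probes of complex III, Cyc1, whereas the median of these 3 was 0.11 with all arrays. That median takes in the Uqcrc1 probe A_65_P19407, which was low in fed pool 3. At 12 h 4, 1 and 7 probes of complexes I, IV and V were called lower, and 0, 1 and 1 higher. At 24 h the counts were 4, 2 and 8 lower, and again 0, 1 and 1 higher. The count of complex V was thus no higher at 72 h than before, whereas its median was -0.49, -0.53 and -0.78 in turn. The medians of single pools lay between -0.02 and 0.36 for complex I in the fed pools and between -0.77 and -0.57 at 72 h. For complex IV they lay between -0.04 and 0.25 fed and between -0.70 and -0.45 at 72 h, and for complex V between -0.07 and 0.19 fed and between -1.11 and -0.69 at 72 h. The fed and 72 h medians thus did not overlap in any of these complexes. The difference between complexes was not tested, since probes of a complex are no replicates.

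**Figure D3:**
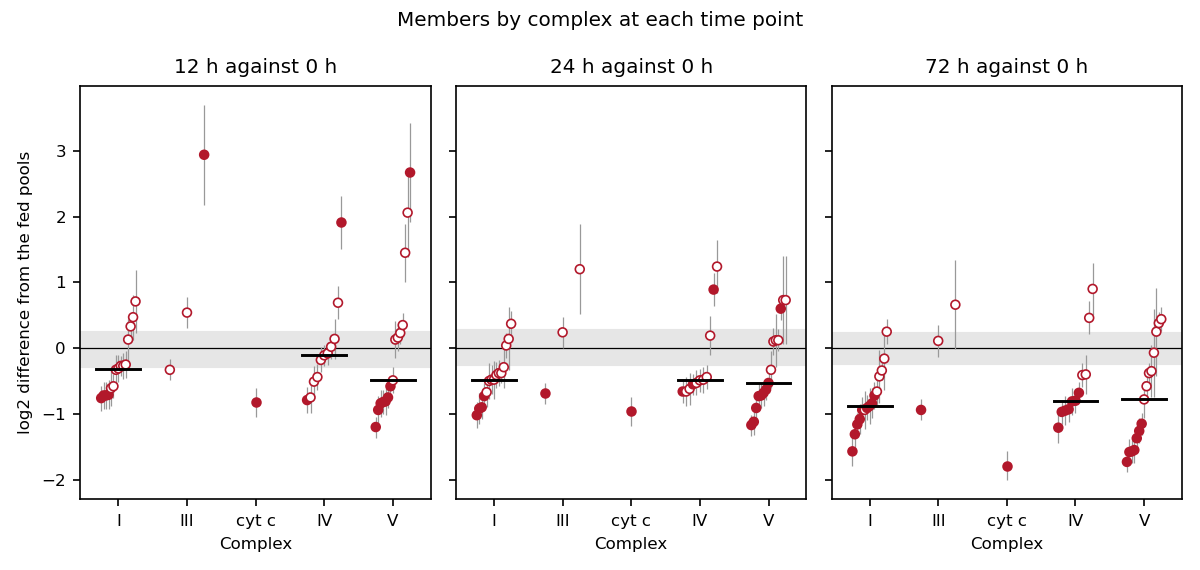
Log2 difference from the fed pools (vertical) of each member, by complex (horizontal), at 12, 24 and 72 h. Filled circles are called, open circles are not, thin bars are standard errors of the fit, thick bars the median of complexes with more than 3 probes, and the grey band the middle of all probes (25th to 75th percentile); at 72 h all filled circles lie below the band.

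Complex I oxidises NADH, and its members included accessory subunits of the membrane arm and parts of the matrix arm that carries the flavin and the iron-sulphur clusters. Ndufc1 (probe A_65_P10747), Ndufa4 and the probe named Ndufs5 fell most at 72 h. Ndufc1, a small accessory subunit, had log2 ratios of -0.16, -0.32 and 0.30 in the fed pools, -0.36, -0.81 and -1.13 at 12 h, -0.93, -0.54 and -0.72 after 24 h, and -1.74, -1.40 and -1.73 at 72 h. All fasted pools lay below all fed pools, and at 72 h the level was 2.96-fold lower (log2 difference -1.57, SE 0.22, adjusted p = 0.00066). In Cy3 alone this probe was not called lower at 12 h. Ndufa4, named for complex I but known as a subunit that associates with complex IV, had -0.10, -0.15 and 0.37 in the fed pools and -1.23, -0.99 and -1.59 at 72 h, a 2.48-fold fall (log2 difference -1.31, SE 0.20, adjusted p = 0.0014). At 12 h and 24 h its ratio was also called lower, with differences of -0.72 and -0.73. In Cy3 alone the 12 h difference was 0.23. Both calls were lost in Cy3 alone and without the 2 arrays that stood apart. The Ndufs5 probe stood at 0.46, 0.01 and 0.34 in the fed pools and at -0.95, -0.76 and -0.96 at 72 h (log2 difference -1.16, SE 0.18, adjusted p = 0.0015).

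The matrix arm moved less evenly. Ndufs1, which holds iron-sulphur clusters, fell by 0.94 on the log2 scale at 72 h (SE 0.20, adjusted p = 0.0082), but a further probe whose present symbol is also Ndufs1 differed by -0.08 (adjusted p = 0.86). Ndufs4, an accessory subunit, was lower at 24 h (-0.92) and at 72 h (-1.08), and Ndufv1, the flavoprotein that binds NADH, at 72 h alone (-0.72, adjusted p = 0.033). Ndufa7 was the exception to the time course, with its largest difference from the fed pools at 24 h (-1.02, against -0.84 at 72 h from 2 pools), whereas the other 24 of the 25 members called lower at 72 h had their lowest mean there. Ndufs3, also of the matrix arm, lay just outside the limit at 72 h with -0.94 (adjusted p = 0.054), and Ndufa2 lay just inside with -0.88 (adjusted p = 0.05 after rounding). Of the complex I members not called at 72 h, Ndufa6 had the only difference above 0 (0.25, adjusted p = 0.45), and the assembly factor Ndufaf1 stood at -0.34 (adjusted p = 0.17). Ndufv2 stood at -0.16 with all arrays and at -0.72 (adjusted p = 0.0067) without the 2 arrays that stood apart. Ndufb9 had a value in 1 fed pool and 1 pool at 72 h.

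The 2 Ndufc1 probes parted at 24 h. Probe A_65_P15503 had log2 ratios of 0.03, -0.21 and 0.25 in the fed pools, -0.70, -0.38 and -1.11 at 12 h, -0.11, 0.18 and 0.14 after 24 h, and -1.04, -0.84 and -0.77 at 72 h. By these ratios it was low at 12 h, back among the fed values at 24 h, and low again at 72 h. The rise from 12 h to 24 h was 0.80 (SE 0.19, adjusted p = 0.041). It was the only call among the members in that comparison, in which 2.92% of all probes were called in either direction. The call was kept in 7 of 25 alternatives and lost, among others, in Cy3 alone, with loess and with median centring. Its call at 12 h against the fed pools was lost in Cy3 alone and without the 2 arrays that stood apart. Probe A_65_P10747 differed by 0.04 between 24 h and 12 h (adjusted p = 0.94).

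Complex II, which oxidises succinate and holds no subunit encoded by mitochondrial DNA, was measured by 5 probes of its 4 genes, and its reading at 72 h turned on fed pool 3. With all arrays none of the 5 was called at 72 h and the differences ran from -0.60 to 0.01 with a median of -0.32. Sdhb, the iron-sulphur subunit, stood at 0.47, 0.09 and -1.67 in the fed pools and at -0.72, -0.70 and -0.65 at 72 h. Sdhc, a membrane anchor, stood at -0.08, 0.23 and -1.38 in the fed pools and at -0.44, -0.41 and -0.36 at 72 h. In both, fed pool 3 was the lowest of these values and the other fed pools were above all 72 h pools. The Sdhd probe A_65_P02115 had the same form, with 0.58, 0.38 and -0.72 in the fed pools and -0.58, -0.42 and -0.56 at 72 h. Without the 2 arrays that stood apart, 4 of the 5 probes were called lower at 72 h with a median of -0.50, namely Sdhb (-0.97, adjusted p = 0.0032), Sdhc (-0.48, adjusted p = 0.047) and both Sdhd probes (-0.50, adjusted p = 0.035, and -1.0, adjusted p = 0.0013). Of all probes 8.44% were called lower in that fit. Sdha, the flavoprotein, stood at -0.18 in it (adjusted p = 0.56). Its fed values were -0.04, -0.10 and -0.05 and its 72 h values -0.43, -0.25 and -0.08. At 12 h 1 of the 5 probes was called lower and 1 higher with all arrays, with a median of 1.05 that was -0.46 without the 2 arrays. At 24 h none was called with all arrays (median -0.10), and 2 were lower and none higher without the 2 arrays (median -0.36).

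Complex III and cytochrome c link the dehydrogenases to the oxidase. Cycs, somatic cytochrome c, had the largest fall of all members at 72 h. Its log2 ratios were -0.22 and 0.21 in the 2 fed pools with a value, -0.55, -1.05 and -0.86 at 12 h, -1.29, -0.95 and -0.65 after 24 h, and -1.79, -1.73 and -1.86 at 72 h. The 3 time points were called lower than the fed pools, and the 72 h pools lay below every other pool with a 3.45-fold fall (log2 difference -1.79, SE 0.22, adjusted p = 0.00042). From 24 h to 72 h it fell by 0.83 (SE 0.20, adjusted p = 0.02). Without the 2 arrays that stood apart, 1 fed pool was left, so that the spread came from the other groups, and the differences were -0.58 at 12 h (adjusted p = 0.21), -0.75 at 24 h (adjusted p = 0.064) and -1.57 at 72 h (adjusted p = 0.0021). Cyc1, the haem-bearing cytochrome c1 of complex III, stood at 0.09, -0.03 and 0.01 in the fed pools, -0.21, -0.35 and -0.37 at 12 h, -0.84, -0.66 and -0.49 after 24 h, and -1.04, -0.69 and -1.02 at 72 h. The fed and 12 h pools did not overlap, but the call came first at 24 h (-0.69, SE 0.16, adjusted p = 0.016), and the 72 h fall was 1.92-fold (log2 difference -0.94, SE 0.16, adjusted p = 0.0019).

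With all arrays neither probe of the core protein Uqcrc1 was called at 72 h. Probe A_65_P11170 differed by 0.11 (SE 0.24, adjusted p = 0.81) and probe A_65_P19407 by 0.66 (SE 0.68, adjusted p = 0.6). The 0.66 takes in fed pool 3, where that probe stood at -2.77 against 0.29 and 0.42 in the other fed pools. Probe A_65_P19407 was called higher at 12 h (2.94, SE 0.76, adjusted p = 0.03) from fed values of 0.29, 0.42 and -2.77 and 12 h values of 1.17 and 3.33. The extreme values are those of fed pool 3 and 12 h array 3, and without both arrays the difference was 0.81 (adjusted p = 0.066), with 1 pool left at 12 h. Other subunits of complex III whose probes carry other names in the files were lower at 72 h, among them Uqcrfs1, the Rieske iron-sulphur protein (-1.24, SE 0.20, adjusted p = 0.0015), and Uqcrc2, the other core protein (-1.10, SE 0.17, adjusted p = 0.0015).

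Complex IV, cytochrome c oxidase, has its catalytic core from mitochondrial DNA, and its members here were the nuclear subunits around it. Cox5b stood at 0.01, -0.17 and 0.76 in the fed pools, 0.00, -0.28 and -0.64 at 12 h, -0.61, -0.46 and -0.19 after 24 h, and -1.05, -0.72 and -1.26 at 72 h. Only at 72 h was it called lower, by 2.31-fold (log2 difference -1.21, SE 0.24, adjusted p = 0.006). Both Cox5a probes fell at 72 h, A_65_P17831 by 0.97 (SE 0.18, adjusted p = 0.0042) and A_65_P06131 by 0.93 (SE 0.19, adjusted p = 0.0073). For A_65_P17831 the fed values were 0.12, -0.01 and 0.25 and the 72 h values -0.83, -0.56 and -1.17. Cox6c (-0.81, adjusted p = 0.021) and Cox8a (-0.68, adjusted p = 0.013) were also lower at 72 h. Cox8a stood at 0.16, 0.00 and -0.03 in the fed pools and at -0.70, -0.55 and -0.66 at 72 h. Cox4a, now Cox4i1, stood at 0.89 and 0.37 in the 2 fed pools with a value and at 0.22, 0.23 and 0.21 at 72 h, a difference of -0.41 that was not called with all arrays (adjusted p = 0.17) and was called without the 2 arrays (-0.67, adjusted p = 0.02). That call sets 1 remaining fed pool against the 72 h pools, with the spread taken from the other groups. Cox7b was not called (-0.40, adjusted p = 0.46), its 72 h pools spreading from -1.05 to -0.05.

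Isoforms of the same subunit of complex IV differed in their values. Cox6a1, the form of most tissues, stood at -0.05, -0.16 and 0.28 in the fed pools and at -0.85, -0.62 and -0.86 at 72 h, and fell (log2 difference -0.80, SE 0.18, adjusted p = 0.01). Cox6a2, the form of heart and skeletal muscle, stood at -0.18, -0.33 and -0.62 in the fed pools, 0.06, -0.01 and 0.89 at 12 h, 0.89, 0.17 and 0.49 after 24 h, and 0.22, -0.19 and 0.23 at 72 h. It was called higher at 24 h (0.89, SE 0.25, adjusted p = 0.036) and not at 72 h (0.46, adjusted p = 0.27), when its pools overlapped the fed pools. The 24 h call was kept in 17 of 26 alternatives and was lost without any 1 of the fed pools. The uncorrected Cy3 signal of Cox6a2 was 185 to 231 on the fed arrays, against 9865 to 20376.5 for Cox6a1. The 9 probes of the striated muscle list had a summed Cy3 level of 2380 to 6284 in the fed pools, 4802 to 10594 at 24 h and 1112 to 9676 at 72 h. At 24 h and at 72 h 1 of the 9 was called higher, against 3.79% and 4.8% of all probes. Their part in the Cox6a2 values was not tested. The difference between the isoforms was not tested either. Cox7a2 stood at 0.21, -0.08 and 0.67 in the fed pools and at -0.49, -0.45 and -1.10 at 72 h, and fell (log2 difference -0.95, SE 0.22, adjusted p = 0.014). Cox7a2l, a related protein known for its part in respiratory supercomplexes, stood at 0.35 and -1.32 in the 2 fed pools with a value and at 1.21, 1.13 and 1.93 at 12 h, where it was called higher (1.91, SE 0.40, adjusted p = 0.013). Without fed pool 3 and 12 h array 3, which leaves 1 fed pool, that difference was 0.82 (adjusted p = 0.11), and the 72 h difference moved from 0.90 (adjusted p = 0.18) to 0.06 (adjusted p = 0.9). Cox6b1, listed under another name in the files, was called higher at 12 h (1.68, adjusted p = 0.044) from fed values of 0.17, 0.08 and -1.56, and differed by 0.06 at 72 h. It was not called without the 2 arrays at 12 h (0.44, adjusted p = 0.19) or at 72 h (-0.50, adjusted p = 0.079).

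**Figure D4:**
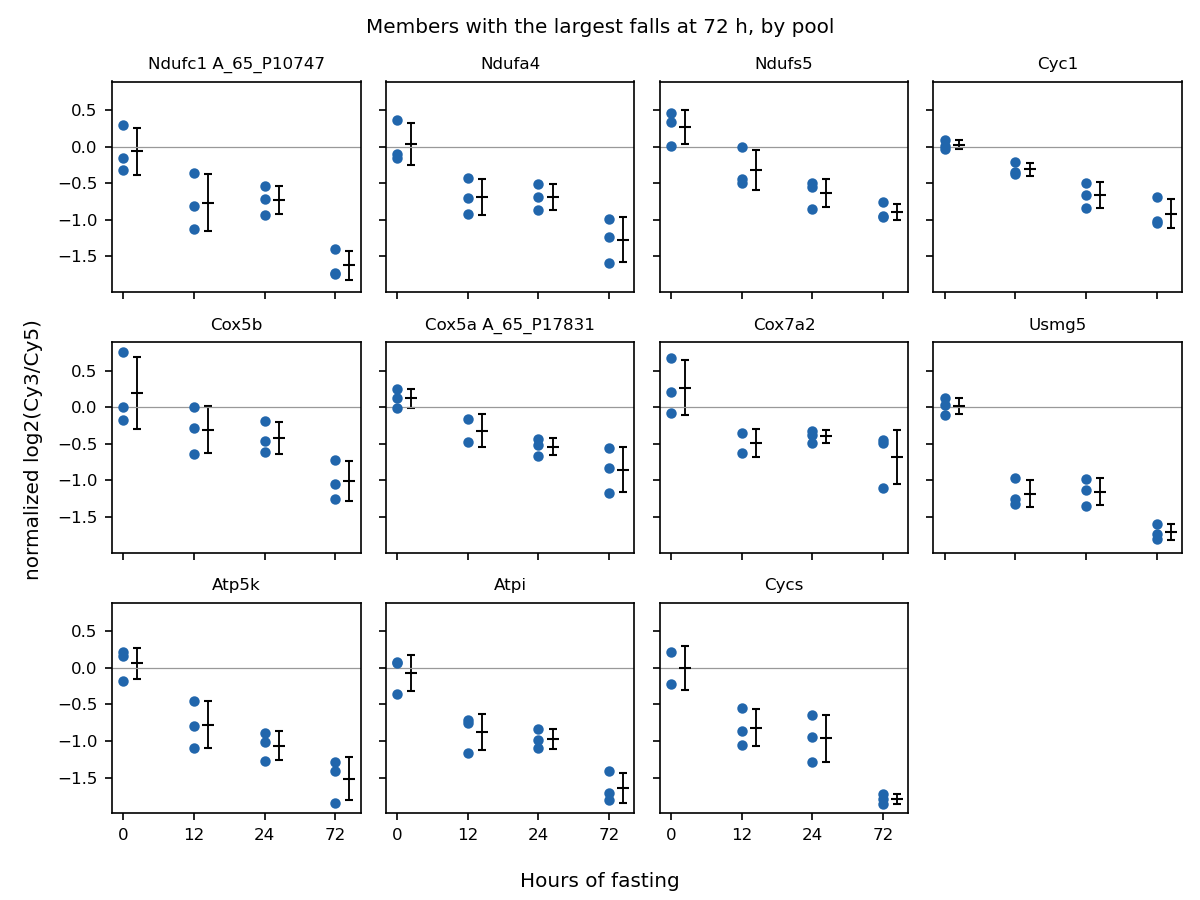
Normalized log2(Cy3/Cy5) by hours of fasting for cytochrome c and the 3 members (1 for complex III) with the largest called falls at 72 h in each complex. Points are pools of 2 mice and the bar beside them the mean and SD; Cycs, Usmg5 and Atpi drop from about 0 in the fed pools to means of -1.79, -1.71 and -1.64 at 72 h.

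Of the 9 members called lower at all 3 times 6 belonged to complex V, namely Usmg5, Atp5k, Atpi, Atp5j, Atp5l and Atp5g3. Usmg5, a small membrane protein of the synthase also known as DAPIT, stood at 0.12, -0.10 and 0.03 in the fed pools, -0.97, -1.26 and -1.32 at 12 h, -1.35, -0.98 and -1.13 after 24 h, and -1.59, -1.80 and -1.74 at 72 h. It was the member with the lowest adjusted p at 72 h, 3.31-fold lower (log2 difference -1.73, SE 0.16, adjusted p = 4.7e-05), and was already 2.30-fold lower at 12 h (adjusted p = 0.002). Atp5k, subunit e, stood at 0.21, -0.18 and 0.16 in the fed pools, -0.45, -0.80 and -1.09 at 12 h, -1.28, -1.02 and -0.89 after 24 h, and -1.41, -1.29 and -1.85 at 72 h, a 2.99-fold fall (log2 difference -1.58, SE 0.20, adjusted p = 0.00042). Atpi, the inhibitor protein IF1 that blocks ATP hydrolysis by the synthase, stood at 0.08, -0.36 and 0.07 in the fed pools, -0.72, -0.76 and -1.16 at 12 h, -1.10, -0.99 and -0.83 after 24 h, and -1.71, -1.41 and -1.81 at 72 h, a 2.98-fold fall (log2 difference -1.57, SE 0.18, adjusted p = 0.00026). In all 3 genes no fasted pool overlapped the fed pools. Over all probes 20.6% had every 72 h pool below every fed pool, and the share over all 3 times was not computed. In Cy3 alone none of the 3 genes was called lower at 12 h. Atp5j, coupling factor F6 of the stalk, fell by 1.55 (SE 0.20, adjusted p = 0.00041), Atp5j2, subunit f, by 1.37 (SE 0.20, adjusted p = 0.00084) and Atp5l, subunit g, by 1.26 (SE 0.19, adjusted p = 0.0013).

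With all arrays no probe of the catalytic head of the synthase was called at 72 h. Atp5b, the β subunit that makes ATP, stood at 0.29, 0.24 and -0.04 in the fed pools and at -0.44, -0.15 and 0.01 at 72 h, a difference of -0.35 that was not called (SE 0.40, adjusted p = 0.64). In the Cy3 channel alone it fell by 0.70 (adjusted p = 0.037). The 2 probes of Atp5a1, the α subunit, differed in direction at 72 h with all arrays. Probe A_65_P05575 stood at 0.56, 0.57 and -1.60 in the fed pools and at -0.27, 0.15 and 0.41 at 72 h (0.25, SE 0.67, adjusted p = 0.86). The -1.60 is that of fed pool 3, which stood apart for this probe, and the other fed pools lay above all 72 h pools. Probe A_65_P05095 stood at 0.36, 0.57 and 0.39 in the fed pools, -0.02, -0.16 and -0.24 at 12 h, 0.02, -0.12 and -0.19 after 24 h and -0.03, 0.05 and 0.17 at 72 h. It was called lower at 12 h (adjusted p = 0.024) and 24 h (adjusted p = 0.034) and not at 72 h (-0.38, adjusted p = 0.12), but its Cy3 signal was not well above background on any fed array, so that these calls carry no fold. Atp5o, the subunit that joins head and stalk, was just outside the limit at 72 h (-0.58, adjusted p = 0.083) and fell by 0.68 from 24 h to 72 h (SE 0.20, adjusted p = 0.044). Both probes of Atp5f1, subunit b, now Atp5pb, were not well above background on any fed array. Probe A_65_P18987, with -0.12, -0.22 and -0.35 in the fed pools and 0.41, 0.07 and 0.63 at 24 h, was called higher at 24 h (adjusted p = 0.048), where Cy3 was at least 1.18-fold higher on the 3 arrays that measured it. Here the bound sets the 24 h mean against the lowest signal well above background on each fed array, or the probe's own signal where that was higher.

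Subunit c, which forms the rotor ring, is made from 3 genes that encode the same mature protein. Atp5g3 stood at 0.19, 0.07 and 0.07 in the fed pools, -0.67, -0.47 and -0.78 at 12 h, -0.71, -0.49 and -0.36 after 24 h, and -0.97 and -1.11 in the 2 pools with a value at 72 h. It was called lower at all 3 times, 2.22-fold at 72 h (log2 difference -1.15, SE 0.17, adjusted p = 0.0015). Atp5g2 stood at 0.21, -0.04 and -0.15 in the fed pools, -0.18, -0.45 and 1.03 at 12 h, -0.40, -0.32 and -0.25 after 24 h, and -0.83, -0.69 and -0.78 at 72 h. The 72 h pools lay below the fed pools, but the difference of -0.78 was not called with all arrays (SE 0.28, adjusted p = 0.095) and was called without the 2 arrays (-0.85, adjusted p = 0.0022). Atp5g1 stood at 0.28, 0.19 and -2.31 in the fed pools, 0.59 and 3.52 at 12 h, 0.08, 0.24 and 0.03 after 24 h, and -0.73, -0.44 and -0.89 at 72 h. Its values of -2.31 and 3.52 again belong to fed pool 3 and 12 h array 3. With all arrays it was called higher at 12 h (2.67, SE 0.75, adjusted p = 0.039) and not at 72 h (-0.07, adjusted p = 0.96). Without both, it differed by 0.36 at 12 h, where 1 pool was left (adjusted p = 0.34), and by -0.92 at 72 h (adjusted p = 0.0031).

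The reference channel had a larger share in the 12 h differences than in those at 72 h. By the methods the Cy5 RNA was the same pool on every array, although the label of fed pool 3 describes it otherwise. Yet 10 members were called higher and 3 lower in Cy5 at 12 h, against 11% of all probes in each direction. At 24 h 3 were higher and 3 lower, against 9.35% and 11.1%. At 72 h neither a member nor any other probe was called in Cy5. Of the 13 members called lower at 12 h, 9 were called higher in Cy5, the Cy5 difference was larger than the Cy3 difference in 11, and none was called lower in the Cy3 channel alone. Of the 16 called lower at 24 h, 10 were also called lower in Cy3 alone, and of the 25 called lower at 72 h, 19 were. In the Cy3 channel alone no member was called lower at 12 h, 14 were at 24 h and 21 at 72 h, against 8.71%, 13.4% and 4.59% of all probes. For Usmg5 the Cy3 difference alone was -0.48 at 12 h (adjusted p = 0.12), -1.30 at 24 h (adjusted p = 0.00073) and -1.61 at 72 h (adjusted p = 0.00036), and its Cy5 differences were 0.72, -0.13 and 0.12. The part of the Cy5 channel in the 12 h calls was not tested further.

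The calls between 72 h and the earlier fasting times were downward, whereas the 1 call between 12 h and 24 h was the rise of Ndufc1 given above. From 24 h to 72 h 7 members were called lower and none higher, against 4.73% and 5.87% of all probes. The 7 were both Ndufc1 probes, Cycs, Atp5j, Atp5o, Atpi and Usmg5. From 12 h to 72 h 17 were called lower and none higher, against 4.92% and 5.84% of all probes. The largest of these 17, Atp5g1 (-2.74, SE 0.75, adjusted p = 0.034) and Atp5b (-1.81, SE 0.44, adjusted p = 0.021), take in 12 h array 3, where Atp5b stood at 2.75 against 0.48 in 12 h pool 2. Without the 2 arrays, 17 members were called lower from 24 h to 72 h and 20 from 12 h to 72 h, against 12.5% and 6.94% of all probes. The 7 and 17 calls became 0 and 1 without 72 h pool 1, 1 and 1 without 72 h pool 3, and 1 and 0 with median centring. Both comparisons cross the 2 file formats.

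Subunits that the files list under other names also fell at 72 h. Outside complex II there were 26 such probes of 25 genes, of which 11 were called lower and none higher at 72 h, with a median of -0.73 (15 lower without the 2 arrays, median -0.60). Of all probes 5.8% were lower, and 8.44% without the 2 arrays. At 12 h 9 of the 26 were called lower and 3 higher, but in Cy3 alone 1 was lower and 1 higher. In Cy5 7 of them were called higher at 12 h and 2 lower. Of complex I, Ndufb2 (-1.52, SE 0.22, adjusted p = 0.00095), Ndufb3 (-1.35, SE 0.20, adjusted p = 0.00095) and Ndufb8 (-1.14, SE 0.19, adjusted p = 0.0019) were also lower at 12 h and 24 h, although Ndufb3 was not called at 12 h without the 2 arrays (-0.64, adjusted p = 0.051). Atp5h, subunit d of the stalk, fell at 72 h alone (-1.15, SE 0.18, adjusted p = 0.0016). Ndufv3 (12 h and 24 h), Atp5d and Cox6b1 (12 h) were the probes called higher at any time, none of them at 72 h. The 12 h calls were lost without the 2 arrays, with 0.58 for Ndufv3 (adjusted p = 0.051) and 0.74 for Atp5d (adjusted p = 0.07), and Ndufv3 was still higher at 24 h (0.65, adjusted p = 0.012).

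The subunits encoded by mitochondrial DNA were represented by 6 probes, 3 of mt-Cytb, the cytochrome b of complex III, and 3 of mt-Nd3 of complex I. They were added after the files had been examined. None was called at 72 h, where the differences ran from 0.05 to 1.22 with a median of 0.60. Without the 2 arrays 2 of the 6 were called higher at 72 h and none lower, with a range of 0.06 to 0.55. Of all probes 6.31% were called higher and 8.44% lower in that fit. At 12 h 1 mt-Cytb probe was called higher (1.13, SE 0.34, adjusted p = 0.045), but without the 2 arrays it differed by 0.41 (adjusted p = 0.18), and an mt-Nd3 probe was then called (0.61, adjusted p = 0.048). Nuclear regulators and genes for the upkeep of mitochondrial DNA had 18 probes. None of these was called lower and 1 higher at 72 h, against 5.8% and 4.8% of all probes, with a median of -0.03. In the fit without the 2 arrays 2 were lower, namely Tfb1m (-0.74, adjusted p = 0.023) and Twnk (-0.50, adjusted p = 0.023). In that fit 2 were higher, namely Ppargc1a and Sp1 (0.67, adjusted p = 0.012). Of all probes 8.44% were then lower and 6.31% higher. With all arrays the 1 called was Ppargc1a, which codes for PGC-1α, with -0.11, 0.08 and -0.92 in the fed pools and 0.44 and 0.97 in the 2 pools with a value at 72 h (1.02, SE 0.30, adjusted p = 0.047). It was higher at 12 h as well (1.13, adjusted p = 0.033), and without the 2 arrays it differed by 0.48 at 12 h, where 1 pool was left (adjusted p = 0.25), and by 0.72 at 72 h (adjusted p = 0.03). Nrf1 stood at 0.64 at 72 h (adjusted p = 0.11) and neither Yy1 probe was called. Esrra, a nuclear receptor that works with PGC-1α, was lower at 12 h (-0.99, adjusted p = 0.012) and stood at -0.54 at 72 h (adjusted p = 0.11).

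**Figure D5:**
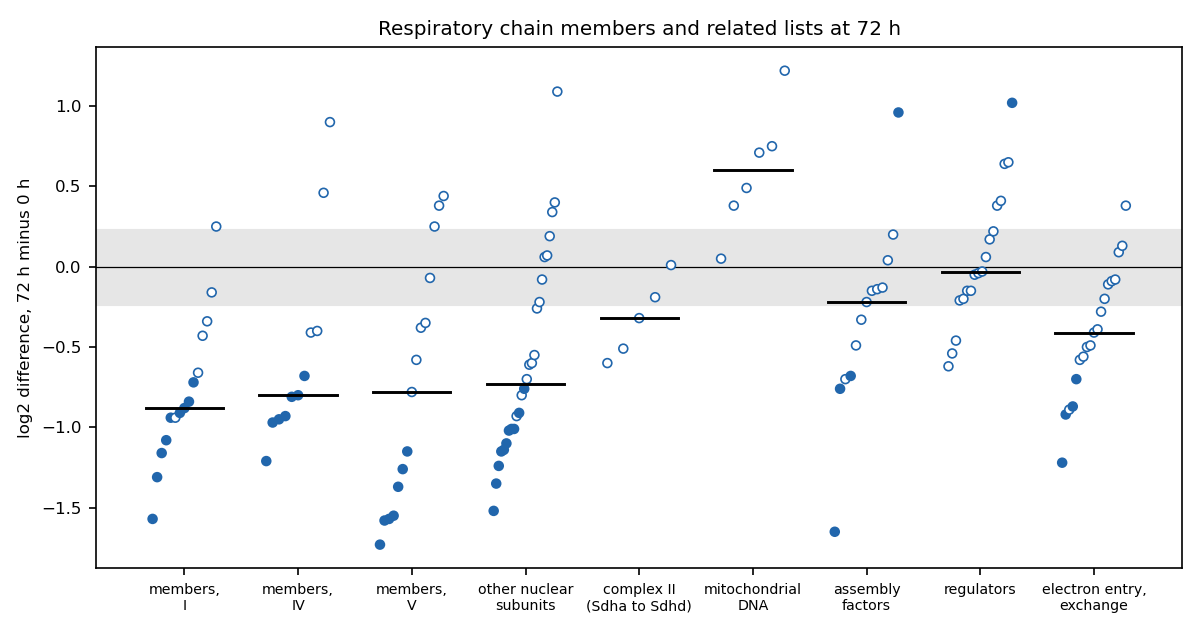
Log2 difference of 72 h from fed pools (vertical) for the members of complexes I, IV and V and for related lists. Each circle is a probe, filled where called, thick bars are medians and the grey band is the 25th to 75th percentile of all probes; the medians are -0.88, -0.80 and -0.78 for the members, -0.73 for the other nuclear subunits, -0.32 for complex II and 0.60 for the subunits encoded by mitochondrial DNA.

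Marker lists of the cell types in the tissue are set beside the shares of all probes. Of all probes 4.9%, 3.79% and 4.8% were called higher at 12, 24 and 72 h in turn, and 5.8% lower at 72 h. Without the 2 arrays 2.58% were higher at 12 h, and 8.44% were lower and 6.31% higher at 72 h. All 7 enterocyte probes were well above background on every array, with 1 of 7 called lower at 72 h and a summed Cy3 level of 95963 to 138521 in the fed pools and 110128 to 114859 at 72 h. Of 9 smooth muscle probes 5 were higher at 12 h (median log2 difference 1.44), 3 at 24 h (0.50) and 2 at 72 h (0.12), and without the 2 arrays 4 were at 12 h (0.81). Their summed Cy3 level was 6272 to 8275 in the fed pools, 8217 to 10507 at 12 h, 7570 to 8987 at 24 h and 8025 to 8718 at 72 h. Of 4 probes of B, plasma and T cells 2 were lower at 72 h, with sums of 2794 to 4045 fed and 770 to 858 at 72 h. With all arrays none of 3 goblet and Paneth cell probes, 1 of exocrine pancreas and 1 of adipose tissue was called at 72 h, and no erythroid marker was found on the array. Without the 2 arrays 1 goblet and Paneth cell probe was called lower at 72 h, and 1 enterocyte probe was called lower and 1 higher. The part of these cells in the falls of the members was not tested.

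Under other ways of processing the arrays and without each pool in turn, 14 of the 25 members called lower at 72 h were called lower every time, namely Cycs, Cyc1, Ndufa4, Ndufc1 (probe A_65_P10747), the Ndufs5 probe, both Cox5a probes, Cox5b, Atp5j, Atp5j2, Atp5k, Atp5l, Atpi and Usmg5. The other 11 lost the call under at least 1 alternative.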

How the data were processed

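RNA from pools of 2 mice (Cy3) and the fed reference (Cy5) had been hybridised to 12 Agilent 60-mer mouse arrays, 3 for each of 4 time points, and quantified with Feature Extraction. The deposited intensity values are median foreground and local background signals per spot and channel, neither corrected nor normalized. The deposited log ratio of Feature Extraction, log10 of Cy5 over Cy3, was treated as a score because the decimal point was displaced in some cells, and it served after repair as an alternative. The series value table equals minus this log ratio (257352 of 257352 cells, tolerance 1e-06). The remaining deposited columns used are quality flags. Of 21446 spots 1075 controls and 91 retired spots were left out, and outlier spots were set to missing.

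The background was corrected by normexp (offset 50), the 24 channels were quantile normalized, and log2(Cy3/Cy5) of 20280 probes was fitted by time point over all 12 arrays with limma 3.58.1 (lmFit, eBayes, R 4.3.3). P-values were adjusted by Benjamini-Hochberg over all probes, with calls at 0.05, and measure the spread between pools of different mice. The fit was tested on simulated data. The number of arrays limits the precision. Fewer pools were used where a value was missing, and none was imputed. The values of 1 member enter the counts and medians but are not reported here. Values by pool were given for the largest called falls of each complex, for complex II, cytochrome c, Cyc1, Atpi and Usmg5, for members called higher, for isoform sets and for genes whose probes disagreed. Tables were written with Python 3.11.15 and pandas 2.3.3. The members and lists were chosen with earlier results of these data known.

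Pools with the same replicate number were different mice, and their deviations correlated by -0.281 to 0.128 over 18 pairs, so that the numbers did not pair the samples. Alternatives covered the background, normalization, channel, control, filters, threshold, replicate block and single arrays.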

Additional observations from a re-analysis of the deposited data

Results flagged for a closer look

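Members whose change from the fed pools differed between fasting times, by a test of the difference itself (limma, adjusted p under 0.05), were as follows. Between 12 h and 24 h the Ndufc1 probe A_65_P15503 differed by 0.80 on the log2 scale. Between 24 h and 72 h the differences were -0.95 and -0.90 for the Ndufc1 probes A_65_P15503 and A_65_P10747, -0.83 for Cycs, -0.87 for Atp5j, -0.68 for Atp5o, -0.67 for Atpi and -0.55 for Usmg5.

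Between 12 h and 72 h the differences in complex I were -0.86 for Ndufc1 (A_65_P10747), -0.69 for Ndufs1, -1.08 for Ndufs3 and -0.76 for Ndufs4. Ndufs4 went the other way in the Cy3 channel alone (0.14). They were -0.61 for Cyc1 and -0.97 for Cycs. In complex IV they were -0.75 for Cox5a (A_65_P06131), -0.72 for Cox6a1 and -0.57 for Cox8a. In complex V they were -1.81 for Atp5b, -2.74 for Atp5g1, -0.74 for Atp5j, -0.88 for Atp5j2, -0.74 for Atp5k, -0.74 for Atp5o, -0.76 for Atpi and -0.52 for Usmg5. Without fed pool 3 and 12 h array 3, Atp5b differed by -0.67 (adjusted p = 0.055) and Atp5g1 by -1.28 (adjusted p = 0.0019), each with 1 pool left at 12 h that is assumed to vary like the other groups. No outlier statistic was applied to single pools, since each group holds 3.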

How the results depend on the processing

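Of the called members' values under the alternatives, 1657 kept direction and call, 569 lost the call and 4 turned in the Cy3 channel alone (Ndufa4 0.23, Cox6c 0.0025 and Atp5j 0.01 at 12 h, Ndufs4 0.14 from 12 h to 72 h). The 25 members lower at 72 h stayed within 1.5 times that number in all alternatives run (17 to 28 with single pools left out). The 13 lower at 12 h became 0 in Cy3 alone, 26 with median centring, 7 with the Feature Extraction log ratio or the value table, 3 without both arrays and 2 to 14 without single pools (3 and 2 without fed pool 1 or 3, 6 without 12 h pool 3). With only the 2 time points compared they became 0, as did the calls over all probes, of which 4237 had an unadjusted p under 0.05. The 16 lower at 24 h became 26 with median centring and 3 to 19 without single pools (3 and 6 without fed pool 1 or 3, 5, 9 and 8 without a 24 h pool).

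The 1 call between 12 h and 24 h became 4 in Cy3 alone, 2 at the methods' threshold, and 0 with loess, median centring, no background correction, the log ratio, the value table, only 2 time points, dim probes removed or 1 probe per gene, and 0 to 5 without single pools. The 7 from 24 h to 72 h became 11, 1, 1, 1, 15 and 17 with Cy3 alone, median centring, the log ratio, the value table, only 2 time points and without both arrays, and 0 to 12 without single pools (0 and 1 without 72 h pool 1 or 3, 1 and 2 without 24 h pool 2 or 3, 12 without 12 h pool 3). The 17 from 12 h to 72 h became 0 with median centring, 1 with the log ratio, the value table or only 2 time points, and 1 to 19 without single pools (1 without 72 h pool 1 or 3, 9 without 72 h pool 2). With the replicate block, which does not pair the pools, the counts at 12, 24 and 72 h were 8, 7 and 24, and those between fasting times 0, 4 and 8.

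Medians moved by more than the spread between pools as follows. In complex I, 12 h gave -0.11 in Cy3 alone, -0.74 with median centring and -0.10 directly against Cy5, 24 h gave -0.78 with centring, and 72 h gave -0.72 with loess, -1.24 with centring and -0.58 directly. In complex IV, 12 h gave 0.13 with loess, which turned the sign, and -1.0 with centring, 24 h gave -0.31 in Cy3 and -1.06 with centring, and 72 h gave -0.62 with loess, -1.34 with centring and -0.64 directly. In complex V, 12 h gave -0.09 in Cy3, -0.29 with loess, -0.77 with centring, -0.34 without background correction, -0.62 without dim probes, -0.14 directly and -0.53 to -0.37 without single pools. There 24 h gave -0.42, -0.27, -0.78, -0.33, -0.28 (log ratio and value table), -0.65 and -0.32 under Cy3, loess, centring, no background correction, the log ratio, no dim probes and direct comparison, and 72 h gave -0.47 with loess, -1.28 with centring, -1.20 without dim probes and -1.15 with 1 probe per gene. The cause was not tested. A slide or scan batch was not run because the file headers used here carry none. Leaving out both arrays was chosen after seeing the data.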

Other observations

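Assembly factors, which build the complexes without being part of them, were measured by 13 probes. Of these, 3 were lower and 1 higher at 72 h (median -0.22), against 5.8% and 4.8% of all probes. Coa3, an assembly factor of complex IV, fell most, from 0.64, 0.31 and 0.70 in the fed pools to -1.25, -0.75 and -1.31 at 72 h (log2 difference -1.65, SE 0.22, limma adjusted p = 0.00052), and was lower at 12 h and 24 h as well, at 12 h not without the 2 arrays that stood apart (-0.49, adjusted p = 0.19). Cox15, which makes haem A, fell by 0.76 (adjusted p = 0.012) and Tmem70, an assembly factor of ATP synthase, by 0.68 (adjusted p = 0.029). Foxred1, an assembly factor of complex I, was higher at 12 h (1.03), 24 h (0.77) and 72 h (0.96, SE 0.21, adjusted p = 0.0085), and was not called in Cy3 alone.

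Electron entry beside complexes I and II, ubiquinone synthesis and nucleotide exchange were measured by 19 probes of 16 genes. Of these, 4 were lower and none higher at 72 h, against 5.8% and 4.8% of all probes. Without the 2 arrays 7 were lower, against 8.44%. Etfa, which takes electrons from fatty acid oxidation, stood at 0.10, -0.32 and 0.27 in the fed pools and at -1.19, -1.12 and -1.29 at 72 h (log2 difference -1.22, SE 0.18, adjusted p = 0.00091). Gpd2, the mitochondrial glycerol phosphate dehydrogenase, fell by 0.92 (adjusted p = 0.016), Coq2 of ubiquinone synthesis by 0.87 (adjusted p = 0.0066) and Coq3 (A_65_P08543) by 0.70 (adjusted p = 0.016). Ucp2, an uncoupling protein, was called higher at 12 h (1.34, adjusted p = 0.048) and 24 h (1.45, adjusted p = 0.037), from fed values of -0.30 and -1.37, and stood at -0.49, -0.51 and -0.36 at 72 h. Without the 2 arrays, which leaves 1 fed pool, it differed by 0.30 at 12 h (adjusted p = 0.4) and by 0.91 at 24 h (adjusted p = 0.01).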
